A study of Mus musculus with 9 samples.

Results

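The Cajal-Retzius cell genes are 9 genes of neurons in the outermost layer of the developing cortex, the marginal zone, chosen by name rather than by their values: Reln, Trp73, Lhx1, Lhx5, Calb2, Ndnf, Ebf2, Ebf3 and Nhlh2. All 9 were found among the 18820 genes of the deposited table. RNA was sequenced from cortex collected at embryonic day 18.5 on the C57BL/6J strain. There were 3 wild-type libraries (WT), 3 that carried 1 mutant copy of Cyfip2 (Het) and 3 that the labels call Cyfip2 knockout (KO). The labels neither describe the mutant allele nor give another allele or treatment in any group. They also leave unstated whether each library is a different embryo. By the Y-linked Ddx3y, Het and KO each held male and female libraries, so not all libraries of these groups came from 1 embryo. Every p-value covers library-to-library spread alone, part of which may be technical.

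Cajal-Retzius cells arise early at the edges of the cortical sheet, above all at the cortical hem, and spread under the meninges over the whole surface. They secrete reelin, which binds the receptors encoded by Lrp8 and Vldlr on migrating neurons and acts through the adaptor encoded by Dab1 to set the order of the cortical layers. Most of these cells later die. The protein made from Cyfip2 belongs to the WAVE complex, a regulator of branched actin.

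No member marks Cajal-Retzius cells alone. Reln is also made by GABAergic interneurons and by mitral cells of the olfactory bulb, Calb2 by interneurons of cortex and bulb, and Trp73 by ependymal and choroid plexus cells. In bulk tissue, fewer cells of a type and less RNA per cell cannot be told apart.

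Promoter sequences are shown for Reln, Trp73 and Nhlh2, because these 3 members had the same 4 highest libraries (described with the cortical hem genes). Each window runs from 250 bases before to 50 bases after a gene start in RefSeq (GRCm38.p6) and reads 5′ to 3′ on the gene's own strand. Trp73 has 2 starts 42702 bases apart: the upstream one gives the full-length protein, and the internal one gives the N-terminally truncated form that is known to predominate in Cajal-Retzius cells. The deposited table has 1 value for the gene and does not separate them. Capitals mark CAGCTG, an E-box of the kind bound by basic helix-loop-helix factors, the family of Nhlh2.
Reln, chr5:22344656-22344955, minus strand: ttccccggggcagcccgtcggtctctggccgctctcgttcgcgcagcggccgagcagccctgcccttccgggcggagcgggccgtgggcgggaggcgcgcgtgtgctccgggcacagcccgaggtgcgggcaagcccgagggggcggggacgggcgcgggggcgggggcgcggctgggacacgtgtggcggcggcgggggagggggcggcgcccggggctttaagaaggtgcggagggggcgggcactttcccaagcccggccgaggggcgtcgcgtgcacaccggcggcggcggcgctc
Trp73 upstream start, chr4:154139826-154140125, minus strand: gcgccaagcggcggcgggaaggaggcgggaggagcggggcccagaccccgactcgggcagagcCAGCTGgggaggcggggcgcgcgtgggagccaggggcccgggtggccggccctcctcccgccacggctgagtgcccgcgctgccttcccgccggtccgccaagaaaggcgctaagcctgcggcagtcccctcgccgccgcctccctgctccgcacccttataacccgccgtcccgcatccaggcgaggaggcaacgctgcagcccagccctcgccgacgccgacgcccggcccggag
Trp73 internal start, chr4:154097124-154097423, minus strand: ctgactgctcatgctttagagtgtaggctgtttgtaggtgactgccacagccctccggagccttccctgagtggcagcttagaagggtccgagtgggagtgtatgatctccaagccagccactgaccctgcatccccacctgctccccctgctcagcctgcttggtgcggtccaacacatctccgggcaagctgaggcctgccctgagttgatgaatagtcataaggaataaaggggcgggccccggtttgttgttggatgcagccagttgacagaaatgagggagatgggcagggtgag
Nhlh2, chr3:102009895-102010194, plus strand: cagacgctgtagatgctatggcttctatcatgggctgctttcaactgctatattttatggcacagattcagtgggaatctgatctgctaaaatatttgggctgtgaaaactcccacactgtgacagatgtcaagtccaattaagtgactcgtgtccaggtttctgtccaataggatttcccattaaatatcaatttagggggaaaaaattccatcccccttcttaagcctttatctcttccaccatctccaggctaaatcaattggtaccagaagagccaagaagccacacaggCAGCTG

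The 4 windows differed in composition. The Reln window held 47 CpG dinucleotides and the upstream Trp73 window 39, against a median of 7 over the 32851 mouse windows of this length. The internal Trp73 window held 6 and the Nhlh2 window 2. CAGCTG occurred once in the upstream Trp73 window, once in the Nhlh2 window, 45 bases after its start, and in 16.3% of all windows. Searched on both strands, none of the 4 windows held TAATTA, letters bound by LIM homeodomain factors such as Lhx1 and Lhx5 (5.29% of all windows), or TATAAA (13.6%). A match describes letters and is not a binding site. RefSeq windows were matched for 5 of the 9 members.

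Some facts of the whole series bear on these genes. Cyfip2 was at 10169 to 11174 normalized counts in WT, 8969 to 9882 in Het and 7522 to 8255 in KO. Approximate depth was lowest in KO replicate 1, at 29.5 M reads, and highest in WT replicate 2, at 54.4 M. Of the 8 listed olfactory bulb markers 7 were in the table, and Cdhr1, of bulb mitral cells, was at 2138 to 3436 in WT replicate 3, Het replicate 1 and KO replicates 1 and 2 and at 21.8 to 53.1 in the other 5 libraries. The summed bulb list ran from 721 to 3197 in WT, 712 to 4404 in Het and 706 to 4124 in KO, with Th, Scgn and Lbhd2 listed at 0 in at least 1 library. All 11 meningeal markers were lowest in Het replicate 3, where Col1a1 stood at 87.2 against 2206 to 5328 elsewhere; the summed list ran from 11942 to 15007 in WT, 1528 to 20813 in Het and 13757 to 25964 in KO, with no marker at 0. By the Y-linked Ddx3y, listed at 0 in Het replicate 1 and KO replicates 1 and 2, these libraries were female and the other 6 male. The tissue label was checked with Emx1, a factor of the dorsal cortex, which was at 1005 to 1342 in the 9 libraries.

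**Figure D1:**
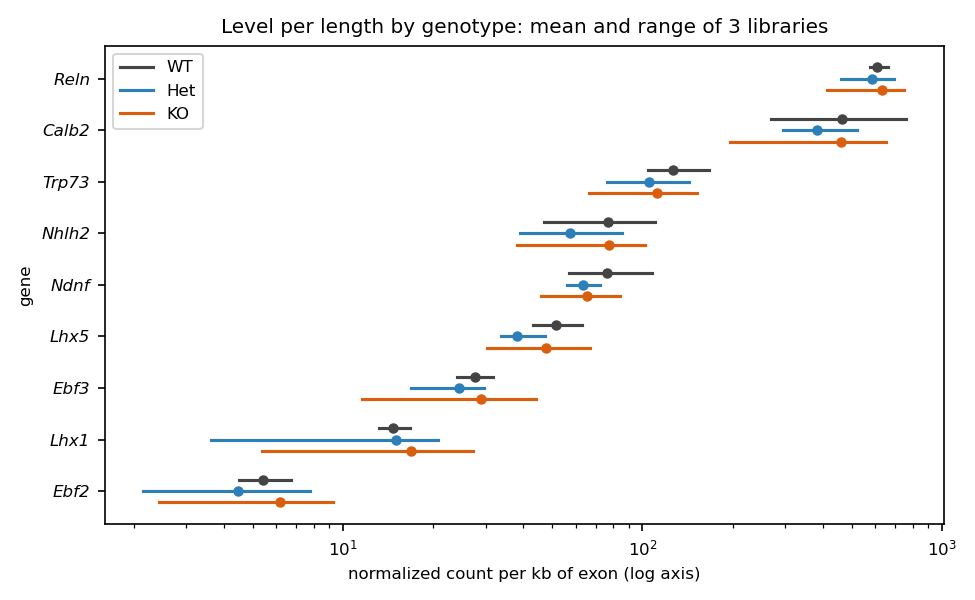
Normalized count per kb of merged exon (log axis) for each gene, by genotype; points are means and lines the range of 3 libraries. Reln and Calb2 lie highest, Ebf2 lowest, and the 3 genotypes overlap for every gene.

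Levels between genes were compared per kilobase of merged exon, as normalized counts per kb averaged over the 9 libraries. Reln was highest at 608, with a range of 414 to 746, and its normalized count exceeded that of 98.3% of genes in the table. Calb2 followed at 436 (197 to 757) and Trp73 at 115 (66.1 to 167). Neighbours in this order overlapped: Reln with Calb2, Trp73 with Nhlh2 at 70.3 (38.0 to 110), Nhlh2 with Ndnf at 68.2 (45.9 to 107), and Ndnf with Lhx5 at 45.8 (30.2 to 66.9). Ebf3 at 27.0 (11.6 to 44.0) overlapped Lhx5 and Lhx1, which was at 15.5 (3.64 to 27.2). Ebf2 was lowest at 5.34 (2.15 to 9.23). Calb2 and Trp73 were the neighbours without overlap.

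Between genotypes none of the 9 genes passed the test, and the spread among libraries of 1 genotype was wide. The main pattern lay within the mutant groups: KO replicate 3 was the lowest of all 9 libraries for 7 genes, and Het replicate 3 for Lhx1 and Ebf2. KO replicates 1 and 2 stood on the other side, above KO replicate 3 for all 9 genes by 1.43-fold (Ndnf) to 5.04-fold (Lhx1).

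**Figure D2:**
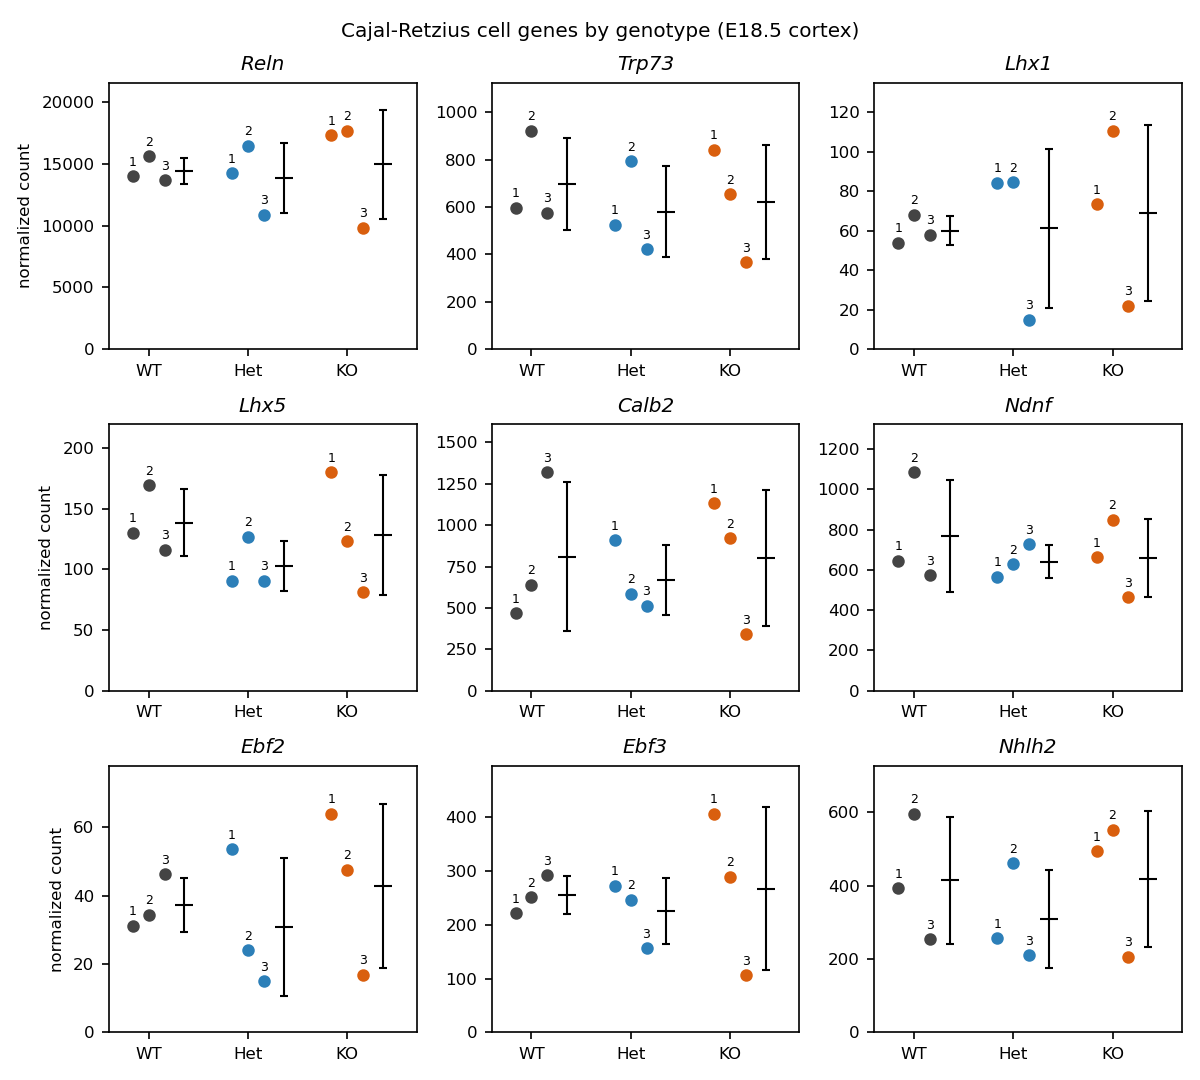
Normalized counts of the 9 genes; each point is a library with its replicate number, and the black mark and bar are the mean and SD of 3 libraries. KO replicate 3 lies below the other KO libraries in all 9 panels and below every WT library, and each KO group spans the WT mean.

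Reln (chr5:21884454-22344702, minus strand, GRCm38) encodes the secreted ligand itself. Its normalized counts were 14018, 15636 and 13695 in WT replicates 1 to 3, 14222, 16484 and 10898 in Het, and 17326, 17697 and 9830 in KO. KO replicates 1 and 2 were the highest of the 9 libraries and KO replicate 3 the lowest, so the KO group enclosed both others. WT averaged 14450 ± 1040, Het 13868 ± 2810 and KO 14951 ± 4439 (SD, n = 3 each). The log2 fold change was 0.0020 ± 0.23 (limma SE) from WT to KO, with a 95% interval from -0.52 to 0.52, and -0.08 ± 0.23 from WT to Het, from -0.60 to 0.44.

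Trp73 (chr4:154056253-154140208, minus strand) encodes p73, a relative of p53 that Cajal-Retzius cells need to survive. Its normalized counts were 598, 924 and 576 in WT, 525, 794 and 423 in Het, and 843, 655 and 366 in KO. The 3 genotypes overlapped, with WT replicate 2 highest. The means were 699 ± 195, 581 ± 192 and 621 ± 240 (SD, n = 3 each). From WT to KO the log2 fold change was -0.22 ± 0.34, with an interval from -0.997 to 0.561, and from WT to Het it was -0.28 ± 0.34, from -1.06 to 0.50.

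The LIM homeodomain factors Lhx1 (chr11:84518284-84525535, minus strand) and Lhx5 (chr5:120431699-120441223, plus strand) are made in early Cajal-Retzius cells, and Lhx5 is known to be needed for the cortical hem. Lhx1 was at 53.8, 68.1 and 57.8 in WT, 84.2, 84.4 and 14.8 in Het, and 73.4, 111 and 21.9 in KO. Replicates 1 and 2 of both mutant genotypes were above all WT libraries, and replicate 3 of both was below them. Lhx1 thus had means of 59.9 ± 7.35, 61.2 ± 40.1 and 68.6 ± 44.5, a KO to WT log2 fold change of -0.08 ± 0.74 (-1.76 to 1.61), and the widest spread of the members. Its lowest value is worth about 13.8 reads and its highest about 99.2. Lhx5 was at 130, 169 and 116 in WT, 90.8, 127 and 90.8 in Het, and 180, 123 and 81.2 in KO. WT and Het touched only through Het replicate 2, and KO spanned both. Lhx5 had the Het to WT log2 fold change with the smallest p of the members, -0.43 ± 0.30 (-1.11 to 0.26, unadjusted p = 0.190 and adjusted p = 0.9998 by limma), and a KO to WT value of -0.17 ± 0.30 (-0.85 to 0.51).

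Ebf2 (chr14:67233292-67430918, plus strand) and Ebf3 (chr7:137193673-137314445, minus strand) encode helix-loop-helix factors of the Ebf family. Nhlh2 (chr3:102010076-102015492, plus strand) encodes a basic helix-loop-helix factor of young neurons. Ebf2 was at 31.3, 34.4 and 46.4 in WT, 53.6, 24.1 and 14.9 in Het, and 64.0, 47.6 and 16.9 in KO. The mutant groups spanned the WT values in both directions. Its log2 fold change between KO and WT was 0.02 ± 0.57 (-1.27 to 1.31), and its lowest value is worth about 13.8 reads. Ebf3 was at 221, 252 and 292 in WT, 272, 247 and 156 in Het, and 406, 289 and 107 in KO. KO replicate 1 was 3.80-fold above KO replicate 3, against a 1.32-fold range in WT. The Ebf3 KO to WT log2 fold change was -0.12 ± 0.44 (-1.13 to 0.88). Nhlh2 was at 394, 596 and 254 in WT, 257, 462 and 211 in Het, and 494, 553 and 206 in KO. Here WT itself varied 2.35-fold. KO against WT gave a log2 fold change of -0.03 ± 0.46 (-1.07 to 1.02).

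Calb2 (chr8:110137502-110168210, minus strand) encodes calretinin, a calcium-binding protein. Ndnf (chr6:65671590-65712326, plus strand) encodes a secreted fibronectin type III protein of marginal zone neurons. Calb2 was at 470, 641 and 1319 in WT, 909, 585 and 514 in Het, and 1134, 923 and 343 in KO. WT replicate 3 was the highest and KO replicate 3 the lowest, and all 3 genotypes overlapped. KO against WT gave a log2 fold change of -0.05 ± 0.50 (-1.19 to 1.09). Ndnf was at 646, 1085 and 574 in WT, 567, 627 and 729 in Het, and 665, 849 and 464 in KO. It was the 1 member in which Het replicate 3 was the highest Het library. Its log2 fold change between KO and WT was -0.21 ± 0.27 (-0.83 to 0.42).

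limma called 0 of 9 members between KO and WT at an adjusted p under 0.05 (every member at 0.9998), with 0% of the 15069 genes tested called, and 0 of 9 had an unadjusted p under 0.05, against 1.18% of genes tested. 7 of 9 members had a negative and 2 a positive log2 fold change (median -0.08), beside 48.4% of genes tested with a positive one and a median of -0.0042 over all. The groups did not overlap for 0 of 9 members, against 6.46% of genes tested. The direction turned with the libraries used. Without WT replicate 2 the count of positive members was 5, and without WT replicate 1, KO replicate 1 or KO replicate 2 it was 0. Without KO replicate 3 all 9 log2 fold changes were positive, with a median of 0.42, and without the 4 libraries with Cdhr1 above 1000 all 9 were negative, with a median of -0.92. That second fit rests on 1 KO library, KO replicate 3, which is assumed to vary like the others. With sex as a covariate all 9 were negative with a median of -0.51. In that fit 2 members, Ebf2 at -1.01 and Ebf3 at -0.84, had an unadjusted p under 0.05, against 532 of 15069 genes tested. None was called (adjusted p = 0.965 by limma for both). No WT library was female and KO replicate 3 was the only male KO library, so this fit also leans on KO replicate 3. With the bulb score as a covariate all 9 were negative with a median of -0.29. Here 1 member, Calb2 at -0.45, had an unadjusted p under 0.05, against 165 of 15069 genes tested, and limma called 0. The 4 libraries with Cdhr1 above 1000, a gene of the bulb score, were also the 4 highest for Calb2.

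**Figure D3:**
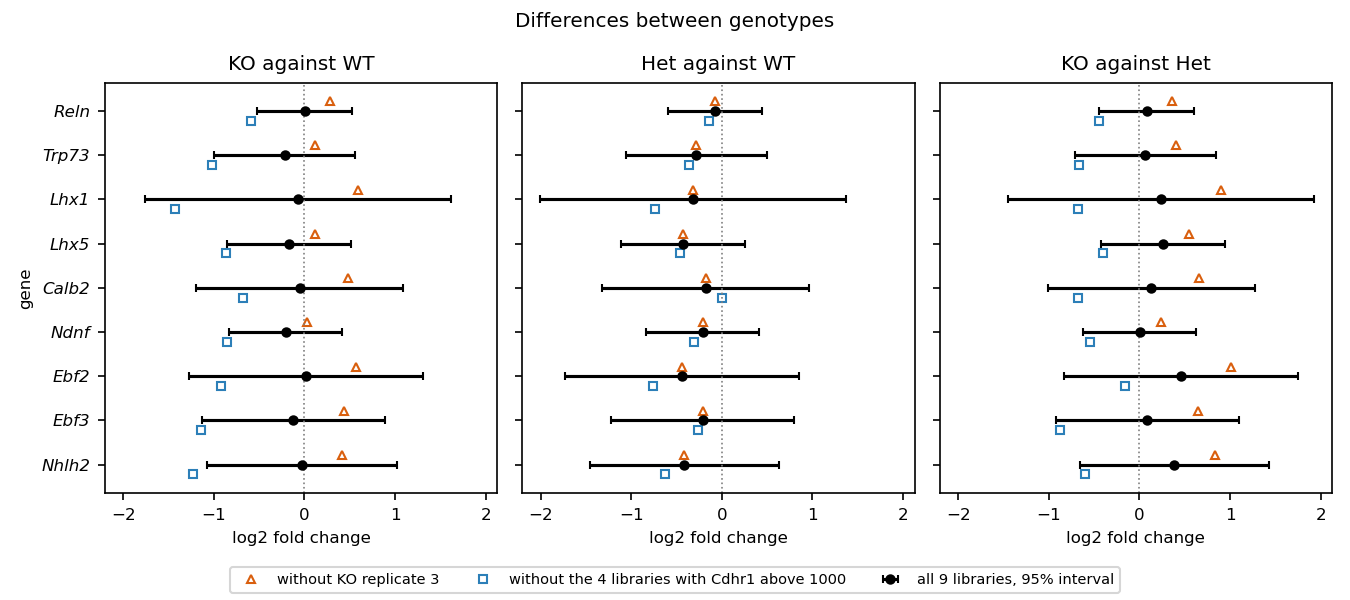
Log2 fold changes of the 9 genes in 3 comparisons; black points and bars are limma estimates with 95% intervals from all 9 libraries, triangles leave out KO replicate 3, and squares leave out the 4 libraries with Cdhr1 above 1000. Every black interval crosses 0, and in KO against WT the triangles lie right of 0 and the squares left of it for every gene.

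Between Het and WT, limma called 0 of 9 members, with 0% of genes tested called, and 0 of 9 had an unadjusted p under 0.05, against 1.61% of genes. All 9 members had a negative log2 fold change (median -0.28), where 46.2% of genes tested had a positive one and the median over all was -0.01. The lowest value was -0.44 ± 0.57 for Ebf2, whose interval ran from -1.73 to 0.85. Lhx5, given above, was next, followed by Nhlh2 at -0.41 ± 0.46, from -1.46 to 0.63. For Lhx1 the value was -0.32 ± 0.74, for Ebf3 -0.21 ± 0.44, for Ndnf -0.21 ± 0.27 and for Calb2 -0.18 ± 0.50. No member had groups without overlap, against 6.67% of genes tested. Without Het replicate 3 the median was -0.03, with 3 of 9 positive. With sex as a covariate the median was -0.56 and limma called 0 of 9 members. Ebf2 was at -0.95 in that fit, with an adjusted p of 0.840 by limma.

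KO and Het were compared directly, with the Het libraries shared with the previous comparison and the KO libraries with the first. limma called 0 of 9 members, with 0% of genes tested called, and 0 of 9 had an unadjusted p under 0.05, against 3.59% of genes. All 9 values were positive (median 0.13), where 50.4% of genes tested had a positive one and the median over all was 0.0016, from 0.0048 ± 0.27 in Ndnf to 0.46 ± 0.57 in Ebf2. The groups did not overlap for 0 of 9 members, against 7.82% of genes tested. Without KO replicate 3, the lowest of the 9 libraries for 7 of 9 members, the median was 0.64 and limma called 0 members. Without Het replicate 3 the median was -0.04 with 4 of 9 positive. Without the 4 libraries with Cdhr1 above 1000 all 9 were negative with a median of -0.60, but KO replicate 3 was then the only KO library.

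Within genotypes the members varied more than most genes. Their residual SD about the genotype means, on the log2 scale, ran from 0.33 in Reln to 1.07 in Lhx1, above that of 76.6% and 97.1% of genes tested. It was 0.73 in Calb2, above 94.0% of genes, and 0.39 in Ndnf, above 81.5%. The lowest library was KO replicate 3 for 7 of 9 members, against 12.2% of genes tested, and Het replicate 3 for the other 2, against 18.8%, so that 1 or the other was lowest for 9 of 9, against 31.0%. They were the 2 lowest libraries for 7 of 9 members (10.4% of genes tested), all but Calb2 and Ndnf. KO replicate 3 was below all 3 WT libraries for 9 of 9 members (27.5% of genes tested) and Het replicate 3 for 7 of 9 (31.3%), with the same exceptions. Within KO, replicate 3 was below the other 2 libraries for 9 of 9 members (38.1%). KO replicates 1 and 2 were both above all 3 WT libraries for 3 members, Reln, Lhx1 and Ebf2 (14.8%). As each gene's difference from its own mean over the 9 libraries, the median of the members was -0.77 in KO replicate 3 and -0.52 in Het replicate 3 on the log2 scale, and 0.48 and 0.34 in KO replicates 1 and 2. In WT it lay between -0.04 and 0.32. Members are measured in the same libraries, so these counts are not independent.

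**Figure D4:**
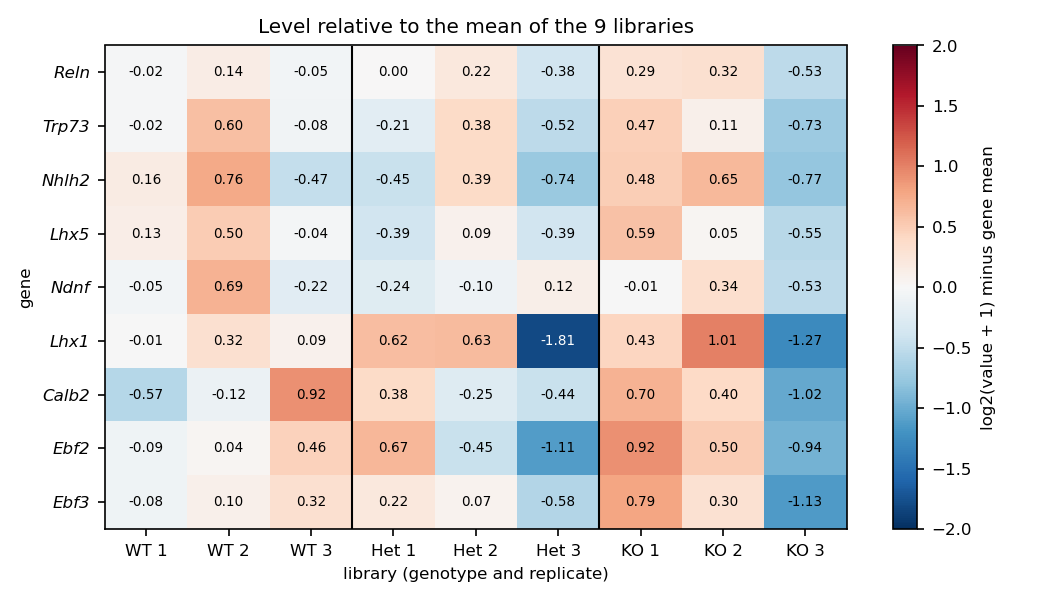
Difference of each library from the gene's mean over the 9 libraries, in log2(value + 1), with genes in rows and libraries in columns; red is higher and blue lower. The column of KO replicate 3 is blue for all 9 genes, from -0.53 to -1.27, and the darkest cell is Lhx1 in Het replicate 3 at -1.81.

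The members fell into patterns that some marker genes shared. The 4 highest libraries for Reln, Trp73 and Nhlh2 were WT replicate 2, Het replicate 2 and KO replicates 1 and 2, a set that was also the 4 highest for 2.19% of genes tested. In these libraries Trp73 was at 655 to 924, against 366 to 598 in the other 5, and Nhlh2 at 462 to 596, against 206 to 394. They were also the 4 libraries highest in Wnt2b, a signal of the cortical hem, at 108 to 138 against 19.6 to 48.8. Lmx1a, a hem transcription factor, was at 37.9 to 57.8 against 3.93 to 18.7, and Zbtb20, a factor of the hippocampus and medial cortex, at 11178 to 14383 against 5142 to 10961. Of the 8 cortical hem genes, all in the table, 4 had these as their 4 highest libraries (Wnt2b, Wnt3a, Lmx1a and Rspo1) and 4 did not (Wnt5a, Wnt8b, Rspo2 and Rspo3). Rspo2 was highest in KO replicate 3, at 697, and Het replicate 3, at 630, where most of the members were lowest. Of 6 hippocampal genes 2 had the same 4 highest libraries, Zbtb20 and Fibcd1. Of 6 choroid plexus genes 3 had them, Ttr, Folr1 and Clic6, and 3 did not. The summed level of the hem genes ran from 1634 to 2297 in WT, 1309 to 2248 in Het and 1908 to 2008 in KO, with Wnt3a and Wnt8b listed at 0 in at least 1 library. Lhx1, Lhx5, Ndnf, Calb2, Ebf2 and Ebf3 overlapped between these sets of libraries. The part of hem, hippocampal and choroid plexus tissue in the levels of Reln, Trp73 and Nhlh2 was not tested. Wnt2b was examined this way after the values were seen.

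Calb2, Ebf2 and Ebf3 followed another order. They were highest in WT replicate 3, Het replicate 1 and KO replicates 1 and 2, the 4 libraries with Cdhr1 above 1000, as were 4.35% of genes tested. Calb2 was at 909 to 1319 there and at 343 to 641 in the other 5 libraries. Ebf2 was at 46.4 to 64.0 against 14.9 to 34.4, and Ebf3 at 272 to 406 against 107 to 252. Of 7 further Cajal-Retzius cell genes 2 had the same 4 highest libraries, the homeodomain factor Barhl2, at 87.2 to 127 against 22.2 to 57.1, and the zinc finger factor Zic1, at 2092 to 3450 against 1123 to 1650. The other 5, Cacna2d2, Slc17a6, Tbr1, Nr2f2 and Cxcr4, did not. Of the 7 bulb markers found, 5 had these 4 highest libraries (Cdhr1, Tbx21, Lbhd2, Th and Scgn). The other 2 did not: Doc2g was at 610 to 745 over all 9 libraries, and Shisa3 was at 19.1 in Het replicate 1 against 30.3 in WT replicate 1. Of 14 interneuron markers 7 also had these 4 highest libraries, among them Gad1, and 7 did not. Of 11 meningeal markers 5 had them, among them Dcn, and 6 did not. The part of bulb, interneuron and meningeal RNA in the levels of Calb2, Ebf2 and Ebf3 was not tested.

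**Figure D5:**
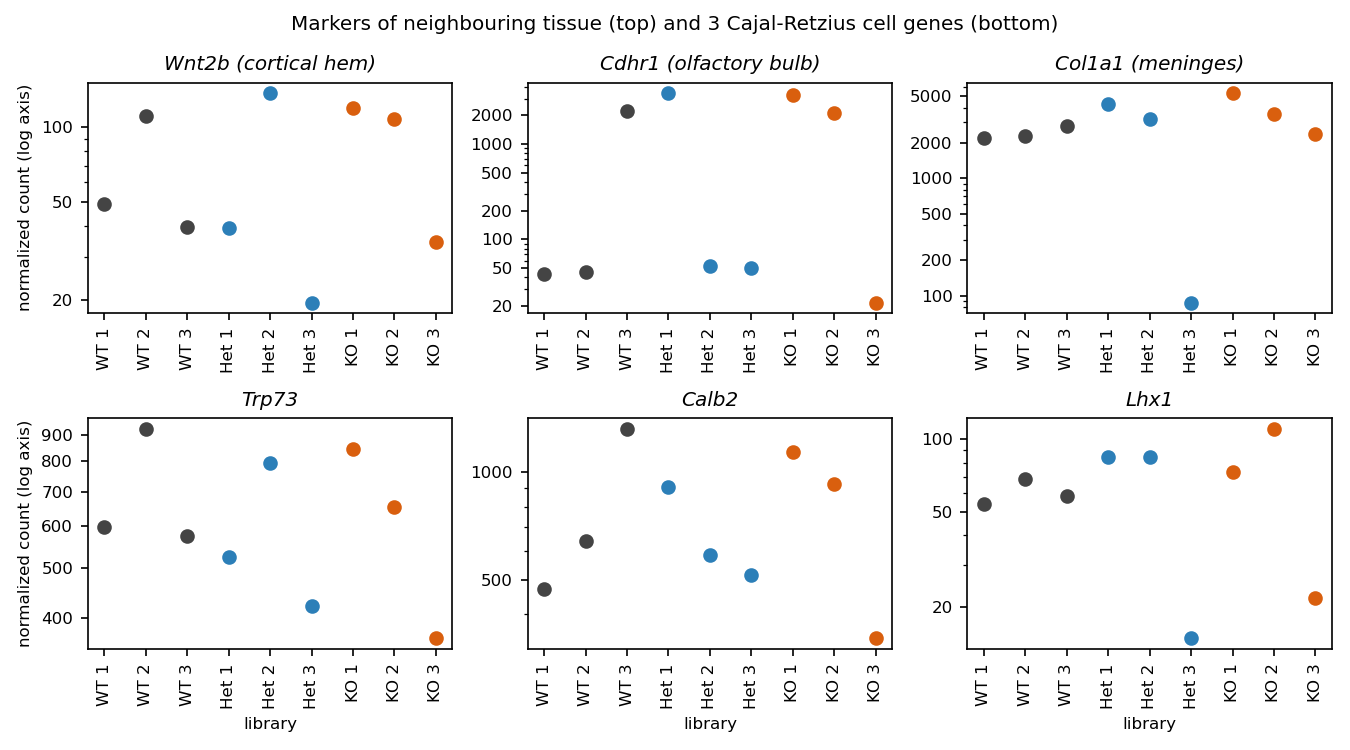
Normalized counts (log axes) per library, coloured by genotype, for 3 tissue markers (top) and 3 of the Cajal-Retzius cell genes (bottom). Trp73 and Wnt2b share their 4 highest libraries, Calb2 and Cdhr1 share theirs, and Lhx1 and Col1a1 are lowest in Het replicate 3.

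Some markers of other tissue were also low in KO replicate 3 or Het replicate 3, while others were not. In KO replicate 3 Gad1, which makes GABA, was at 1302 against 3085 and 3666 in the other KO libraries. Over the interneuron list, the median difference from each gene's own mean in log2 was -0.56 in KO replicate 3 and -0.34 in Het replicate 3. Npy of this list was instead highest in KO replicate 3, at 3374. The 14 interneuron markers, all in the table and none at 0, summed to 16956 to 21159 in WT, 16216 to 20664 in Het and 15562 to 24719 in KO. Col1a1 was at 2385 in KO replicate 3, within the WT range of 2206 to 2792, so low meningeal RNA was seen in Het replicate 3 but not in KO replicate 3. In Het replicate 3, where Lhx1 was lowest, Ttr of choroid plexus was at 20.7 against 31.6 to 11029 elsewhere. It was at 75.5 in KO replicate 3, above WT replicate 3 and Het replicate 1. Tcf7l2, of thalamus and habenula, was at 104 there and at 98.1 in KO replicate 3, against 134 to 236 in the other libraries. The striatal marker Drd1 was at 488 in Het replicate 3 and 585 in KO replicate 3, against 278 to 514. What these tissues contributed to the low values was not tested.

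Pairs of members were compared by the mean absolute difference of their levels, each taken relative to its own mean in log2, over the 9 libraries. Trp73 and Lhx5 were the closest at 0.14, followed by Reln and Trp73 at 0.18. Lhx1 and Ndnf were the farthest apart at 0.68, and the LIM factors Lhx1 and Lhx5 were at 0.59. By the same measure the genes most like Reln were Rhoq at 0.05, then Lrrc1 at 0.05 and Zswim7 at 0.06. Those most like Trp73 were Fibcd1 at 0.11, Emilin2, a matrix glycoprotein, at 0.12, and Foxj1, the regulator of motile cilia, at 0.14. Foxj1 was at 182, 330 and 180 in WT, 204, 273 and 125 in Het, and 257, 265 and 118 in KO. Fibcd1 was also on the hippocampal list. Among members, Lhx5 was at 0.14 from Trp73 and ranked 5 of all genes tested in likeness to it, and Reln ranked 37.

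The reelin receptors varied less between libraries than the ligand, with limma SEs of 0.09 and 0.12 against 0.23 for Reln. Lrp8 encodes the reelin receptor ApoER2, and averaged 16820 ± 2076 (WT), 18138 ± 917 (Het) and 16472 ± 584 (KO; SD, n = 3 each). Its log2 fold change between KO and WT was -0.02 ± 0.09. The second receptor gene, Vldlr, was at 4180 ± 282, 4513 ± 565 and 4297 ± 631, with 0.03 ± 0.12. Dab1, the adaptor that Src family kinases phosphorylate when reelin binds, was at 10951, 11139 and 10817 in WT, 10612, 11457 and 12544 in Het, and 9047, 8653 and 12354 in KO. It was thus highest in Het replicate 3 and KO replicate 3, where Reln was lowest, and its log2 fold change between KO and WT was -0.15 ± 0.13. Of the 21 receptor and signalling genes, limma called 0 in each comparison, and 0 had an unadjusted p under 0.05. Between KO and WT 10 of 21 were higher (median -0.0068), with the integrin subunits Itga3 at 0.16 ± 0.13 and Itgb1 at 0.14 ± 0.12.

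Of 6 genes of reelin cleavage 0 were called between KO and WT, and 5 had positive values (median 0.08), with the protease inhibitor Serpine2 at 0.30 ± 0.25, Adamts4 at 0.13 ± 0.15 and Plat, tissue plasminogen activator, at 0.22 ± 0.30. Relatives of the members were not called either (0 of 8, with 3 positive). Among them Trp53 was at -0.11 ± 0.06, Trp63 at 0.60 ± 0.49 from a low level of 12.4 ± 6.58 in WT, and Ebf1, also made in striatum, at 0.90 ± 0.80. Of 7 further Cajal-Retzius cell genes 0 were called and 4 were positive, with the calcium channel subunit Cacna2d2 at 0.08 ± 0.11, Nr2f2, which encodes the nuclear receptor COUP-TFII, at 0.42 ± 0.60 and Barhl2 at 0.37 ± 0.74. Of 7 cortical hem genes tested 0 were called, with Wnt5a at 0.14 ± 0.14 and Rspo3 at -0.16 ± 0.20. At an unadjusted p under 0.05 none of these 4 lists had a member between KO and WT. Between KO and Het 1 hem gene did, against 3.59% of genes tested. It was Wnt5a at 0.44 ± 0.14 (unadjusted p = 0.012 and adjusted p = 0.942 by limma).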

How the data were processed

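A stranded mRNA kit was used, per the labels' protocols. The deposited table holds 1 signal value per gene and library, namely gene counts scaled by the authors with size factors, as read from the file headers and values. Tools listed in the submitters' processing notes are DESeq2 1.19.11, Salmon 0.11.2 and R 3.6.0, with the build GRCm38 and no role or order. The sources used here do not say whether counting used strand, and antisense genes overlap Reln, Trp73, Lhx5, Ebf2 and Ebf3. Low values cluster on a step worth about 1 read, 0.675 to 1.22, which gave the approximate depths. Between 60.9% and 78.2% of values below 6 lay within 0.1 of a whole step, so reads were not recovered and count tests were not used.

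Tests used log2(value + 1) and the 15069 genes whose mean reached 10. This scale makes the change of low genes look smaller. The model was limma 3.58.1 (R 4.3.3), with a mean for each genotype and all 9 libraries in 1 fit (eBayes with a trend), two-sided, with Benjamini-Hochberg adjustment over all genes tested and a threshold of 0.05. This script was tested on simulated data. Symbols and coordinates came from GENCODE M21 (GRCm38), and 18783 of 18820 gene IDs matched. Members and lists were chosen with earlier results of these data known.

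All 9 members are named. Other lists give counts, up to 3 genes with the smallest p between KO and WT, and the reelin receptors and Dab1. Marker lists are given by their first gene, and other genes were added after their values were seen. The numbers of the Het and KO libraries were not used as pairs in the main fit. Their deviations from the genotype means correlated over genes at 0.45, 0.10 and 0.47 for numbers 1 to 3. KO replicate 2 was at 0.12 with Het replicate 1, and KO replicate 1 at 0.15 with Het replicate 2. Numbers 1 and 3 of these genotypes also match in sex and in Cdhr1 above or below 1000, so the correlations do not establish pairs. Alternatives were the replicate number as a block, other pseudocounts, no filter, quantile and upper-quartile scaling, a fit to the compared groups alone, bulb score, sex or hem score as covariate, and libraries left out.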

Additional observations from a re-analysis of the deposited data

How the results depend on the processing

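limma called 0 of 9 members in each of the 3 comparisons under all 21 settings, and the smallest adjusted p of a member was 0.535. Of 540 log2 fold changes recomputed, 460 kept their sign and 80 turned, 44 of these with 1 library left out; the cause was not tested. With the replicate block, 0 members were called, the fold changes were identical, and genes with an unadjusted p under 0.05 numbered 382 between KO and WT, 493 between Het and WT and 984 between KO and Het, against 178, 242 and 541. In their deviations, same-numbered libraries correlated at -0.01, 0.06 and -0.03 between KO and WT. Between Het and WT the values were -0.07, 0.25 and 0.03. In these comparisons the libraries share only a number. Among KO and Het, KO replicate 2 correlated best with Het replicate 1, so a pairing by number was not established there either. Genes with an unadjusted p under 0.05 between KO and WT numbered 326 without the filter, 271 in the fit to those groups alone, 532 with sex as a covariate, 805 without KO replicate 3 and 870 without the libraries with Cdhr1 above 1000.

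For KO against WT, the log2 fold changes that turned were Ebf2 -0.10 under quantile normalization, Reln -0.091 and Ebf2 -0.37 with the olfactory bulb score as covariate, Reln -0.30 and Ebf2 -1.01 with sex as covariate, Reln -0.59 and Ebf2 -0.92 without the libraries with Cdhr1 above 1000, and Nhlh2 0.014 with the cortical hem score as covariate. With 1 library left out in turn, values ran from -0.14 to 0.28 for Reln, -0.36 to 0.57 for Ebf2, -0.48 to 0.12 for Trp73, -0.55 to 0.59 for Lhx1, -0.41 to 0.070 for Ndnf, -0.34 to 0.42 for Nhlh2, -0.39 to 0.48 for Calb2, -0.45 to 0.12 for Lhx5 and -0.52 to 0.43 for Ebf3.

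For Het against WT, the log2 fold changes that turned were Reln 0.046 and Lhx1 0.0028 with the cortical hem score as covariate. With 1 library left out in turn, values ran from -0.39 to 0.065 for Ndnf, -0.50 to 0.24 for Calb2, -0.21 to 0.086 for Reln, -0.72 to 0.49 for Lhx1 and -0.37 to 0.032 for Ebf3.

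For KO against Het, the log2 fold changes that turned were Ndnf -0.014 and Ebf3 -0.029 under quantile normalization, Lhx1 -0.030, Calb2 -0.17 and Ebf3 -0.12 with the olfactory bulb score as covariate, Reln -0.074, Trp73 -0.081, Lhx1 -0.29, Calb2 -0.25, Ndnf -0.069, Ebf2 -0.059 and Ebf3 -0.27 with sex as covariate, Reln -0.45, Trp73 -0.66, Lhx1 -0.68, Lhx5 -0.40, Calb2 -0.68, Ndnf -0.54, Ebf2 -0.16, Ebf3 -0.87 and Nhlh2 -0.60 without the libraries with Cdhr1 above 1000, and Reln -0.026, Trp73 -0.11, Lhx1 -0.032, Ndnf -0.086 and Ebf3 -0.043 with the cortical hem score as covariate. Without the libraries with Cdhr1 above 1000, KO replicate 3 was the only KO library left, here and between KO and WT. With 1 library left out in turn, values ran from -0.20 to 0.24 for Ndnf, -0.084 to 0.36 for Reln, -0.20 to 0.41 for Trp73, -0.57 to 0.90 for Lhx1, -0.21 to 0.66 for Calb2, -0.31 to 0.64 for Ebf3 and -0.022 to 0.55 for Lhx5.

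With sex as a covariate the median of the members moved from -0.08 to -0.51 between KO and WT and from -0.28 to -0.56 between Het and WT. Between KO and Het it moved from 0.13 to -0.07, and limma called 0 members in each comparison. The hem score was added as a covariate after seeing the data. With 3 libraries a genotype, the interval of Lhx1 between KO and WT ran from -1.76 to 1.61, and Lhx1 and Ebf2 rest on about 13.8 reads in their lowest library. Bulb RNA, sex and genotype overlap: the 3 female libraries are Het or KO and all have Cdhr1 above 1000, so their parts in these levels cannot be told apart.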
